A study of Mus musculus and Homo sapiens with 41 samples.

Results

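Immediate early and MAPK feedback genes were represented by Egr1, Egr2, Egr3, Ier2, Ier3, Dusp1, Dusp2, Dusp6, Zfp36 and Nr4a1, matched by gene symbol in the deposited RNA-seq tables. All 10 genes were found among the 53756 rows of the granulocyte-monocyte progenitor (GMP) table and among the 13238 genes of the 416b table. The study asked how PLZF, the transcription factor encoded by Zbtb16, acts on chromatin and gene expression in myeloid progenitors. GMPs (Lin-, c-Kit+, Sca-1-, Cd34+, FcγR+) were sorted from bone marrow of lethally irradiated C57BL/6 Cd45-1 recipients. These mice had been reconstituted with total bone marrow that was wild type (WT) or homozygous for the Zbtb16lu/lu mutation, so every GMP library came from a transplanted host. 416b, a Cd34+ murine myeloid cell line, was transduced with a lentivirus carrying PLZF-Flag and GFP or with the Empty vector, which also carries Flag and GFP, and GFP+ cells were sorted.

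Immediate early genes are transcribed within minutes of a growth factor, cytokine or stress signal, without new protein synthesis. Their promoters are read by serum response factor with ETS family partners and by CREB, which respond to the ERK, p38 and JNK branches of the mitogen-activated protein kinase (MAPK) cascade. Several of the products then end the response: dual specificity phosphatases of the Dusp family remove phosphate from MAPKs, and Zfp36 targets short-lived mRNAs for decay. In myeloid progenitors Egr1, Egr2 and Nr4a1 are also known as regulators of the monocyte and macrophage programme.

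Promoter sequences are shown to set the response elements beside the expression values of the same genes. RefSeq promoter windows of 300 bases on GRCm38.p6, the assembly called mm10, were found for 7 of the 10 genes, and Egr1, Egr3 and Ier2 are named only. The 200 bases upstream of the start are printed for 6 genes. Among the genes with a window, Egr2, Dusp1 and Nr4a1 were those at least 2-fold higher in WT B than in WT A, as given below. Zfp36 held the most kinds of motif, Ier3 was lower in WT B, and Dusp6 differed least between the WT libraries. Each runs 5′ to 3′ on the gene's own strand, and capitals mark matches to the motifs described next.
Egr2 (chr10:67537669-67537868, plus strand): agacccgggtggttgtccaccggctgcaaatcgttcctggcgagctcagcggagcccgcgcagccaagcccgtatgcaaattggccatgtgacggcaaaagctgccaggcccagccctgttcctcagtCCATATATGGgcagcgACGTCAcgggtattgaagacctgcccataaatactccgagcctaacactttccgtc
Dusp1 (chr17:26508473-26508672, minus strand): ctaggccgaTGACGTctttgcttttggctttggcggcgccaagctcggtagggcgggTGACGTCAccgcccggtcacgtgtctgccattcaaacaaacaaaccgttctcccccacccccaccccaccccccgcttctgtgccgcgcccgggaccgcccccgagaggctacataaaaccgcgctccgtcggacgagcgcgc
Nr4a1 (chr15:101266646-101266845, plus strand): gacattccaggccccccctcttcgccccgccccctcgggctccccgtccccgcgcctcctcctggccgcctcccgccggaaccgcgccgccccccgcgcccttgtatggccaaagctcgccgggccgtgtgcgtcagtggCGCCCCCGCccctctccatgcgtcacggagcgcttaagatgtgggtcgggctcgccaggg
Zfp36 (chr7:28379229-28379428, minus strand): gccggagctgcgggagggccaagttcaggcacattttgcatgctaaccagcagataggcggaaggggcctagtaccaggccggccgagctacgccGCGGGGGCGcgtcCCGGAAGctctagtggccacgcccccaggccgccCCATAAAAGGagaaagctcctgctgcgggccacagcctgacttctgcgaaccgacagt
Ier3 (chr17:35821513-35821712, plus strand): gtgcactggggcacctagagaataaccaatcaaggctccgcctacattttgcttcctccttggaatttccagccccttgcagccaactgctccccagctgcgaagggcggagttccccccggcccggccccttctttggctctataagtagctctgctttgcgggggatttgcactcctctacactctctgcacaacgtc
Dusp6 (chr10:99263031-99263230, plus strand): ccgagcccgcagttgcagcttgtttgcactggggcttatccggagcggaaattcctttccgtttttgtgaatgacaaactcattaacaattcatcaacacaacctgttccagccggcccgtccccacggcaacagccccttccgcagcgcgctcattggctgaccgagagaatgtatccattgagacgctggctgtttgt

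The motifs searched on both strands were the CArG box of serum response factor, the ETS core CCGGAAG, the cAMP response element TGACGTCA, its short form TGACGT, the EGR sites GCGGGGGCG and GCGTGGGCG, the AP-1 site TGANTCA and the TATA box TATAAA. A full cAMP response element also contains the short form. A CArG box was found for 2 of 7 genes, at -72 in the Egr2 window shown and at -58 in Zfp36, against 1.63% of 32851 windows of all genes. Egr2 has 5 windows for its alternative starts, and 4 of them held a CArG box. Here and below, members are counted by gene, with a match in any window, and the background by window. Egr2 thus had more chances of a match than a single window. The Dusp1 window held the full cAMP response element at -143 and another short form at -191, and the full element was present in 1.79% of all windows. Beside the short forms of Dusp1, one lay in the window of Egr2 at -56, which made 2 of 7 genes against 7.51% of windows. GCGGGGGCG, a site bound by the EGR proteins themselves, was found for 3 of 7 genes, namely Zfp36 at -105, Dusp2 at -98 and Nr4a1 at -60, against 2.91% of windows. Zfp36 also held the ETS core at -92, a motif of 8.86% of windows. GCGTGGGCG, TGANTCA and TATAAA were found in none of the 7 genes' windows and in 0.612%, 7.81% and 13.6% of all windows. No searched motif lay in the Ier3 or Dusp6 windows. These matches describe letters in the printed and searched windows and are not evidence of binding.

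RNA was sequenced from 2 GMP libraries of each genotype and from 1 library of each 416b condition. In the GMP table each library carries a numeric tag that looks like a date. Libraries WT A and Zbtb16lu/lu A share a tag, while WT B and Zbtb16lu/lu B each have a tag of their own. Values are normalized read counts, the reads of a gene divided by a size factor of the library. The GMP libraries held between 37563000 and 40170600 reads, and the 416b libraries 54529900 reads with Empty vector and 19995800 with PLZF-Flag. Zbtb16 counted 705 (A) and 828 (B) in WT GMPs, against 369 (A) and 269 (B) in Zbtb16lu/lu GMPs (limma log2 difference -1.28 ± 0.20 (SE), adjusted p = 0.299). In 416b cells Zbtb16 had 382 with Empty vector and 2541 with PLZF-Flag (log2 ratio 2.73, 95% exact binomial interval 2.60 to 2.87, counting error only). All 11 GMP marker genes (among them Kit, Cd34, Fcgr3, Mpo and Elane) were detected in every GMP library, with a summed normalized count of 775401 to 785229 in WT and of 876374 to 891839 in Zbtb16lu/lu. Cd34, a surface marker that the 416b line expresses, had 11059 with Empty vector and 8823 with PLZF-Flag. The granule genes Ctsg (2318 and 1676), Prtn3 (470 and 435) and Mpo (12.1 and 3.30) differed widely in level. In 416b cells the listed GMP markers summed to 26647 with Empty vector and 24118 with PLZF-Flag. Erythroid markers summed to 88421 and 89971, most of it Car2 (70076 and 67811), and megakaryocyte markers to 30746 and 29590.

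The genes differed widely in level. To compare genes, the normalized count was divided by the length of the merged exons in kilobases, and the mean was taken over the 4 GMP libraries. On this per-kilobase scale Ier2, a small nuclear regulator of transcription, was the most abundant member in GMPs at 1017 (range 692 to 1290), above or level with 92.2% of the 37699 genes detected. It was followed by Dusp2 at 637 (487 to 767), Dusp6 at 488 (395 to 569), Dusp1 at 475 (328 to 717), Zfp36 at 435 (335 to 521) and Ier3 at 298 (203 to 347). The ranges of these neighbours overlapped, but within each library Ier2 was above Dusp2, Dusp2 above Dusp6 and Zfp36 above Ier3 in 4 of 4 libraries. Dusp6 was above Dusp1 in 3 of 4 and Dusp1 above Zfp36 in 1 of 4, so the order of those genes was not resolved. Egr1 at 52.0 (33.5 to 81.1) and Nr4a1 at 39.7 (26.4 to 59.4) followed, with overlapping ranges and Egr1 above Nr4a1 in 4 of 4 libraries. Egr2 at 6.54 (3.22 to 8.77) and Egr3 at 1.26 (0.438 to 1.87) were lowest, and neither range met its neighbour's. In 416b cells the per-kilobase level was again highest for Ier2, at 2414 with Empty vector and 2514 with PLZF-Flag, and Dusp6 came second at 2163 and 1913. Dusp1 held the fourth place in GMPs and the seventh in 416b cells, where its levels were 105 and 98.8. The GMP and 416b tables were normalized separately and came from different library kits, so levels are ordered only within each table.

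The members that encode transcription factors came first. Egr1, a zinc finger factor, had normalized read counts of 150 and 364 in WT A and WT B, and of 216 and 204 in Zbtb16lu/lu A and Zbtb16lu/lu B, the order kept for every gene below. Both mutant values therefore lay between the WT values. The log2 difference between genotypes was -0.16 ± 0.37 (SE), with an adjusted p of 0.904 by limma. Egr2, its paralog, was covered by 11 and 28 reads in WT against 29 and 21 reads in Zbtb16lu/lu. Its groups overlapped, and the log2 difference was 0.51 ± 0.59 (limma adjusted p = 0.777). Egr3, at chr14:70077203-70082614 on the plus strand, was covered by 8 and 2 reads in WT and by 8 and 4 reads in Zbtb16lu/lu, too few to enter the test. Nr4a1, an orphan nuclear receptor, had 92.5 and 208 in WT against 148 and 108 in Zbtb16lu/lu. The mutant libraries again fell inside the WT range, with a log2 difference of -0.13 ± 0.39 (limma adjusted p = 0.926).

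Ier2, at chr8:84661331-84662852 on the minus strand of mm10 in GENCODE M21, was the tested member with the largest log2 difference between the genotypes. Its normalized counts were 1325 and 1053 in WT against 1853 and 1963 in Zbtb16lu/lu, so both mutant libraries were above both WT libraries. The means were 1189 ± 192 (SD, n = 2) and 1908 ± 78.1 (SD, n = 2). The log2 difference of 0.69 ± 0.15 had an adjusted p of 0.309 in limma and of 0.361 in edgeR's quasi-likelihood test, and it passed the threshold of 0.08 in DESeq2 (log2 difference 0.69, adjusted p = 0.00801). Ier3, which modulates survival and ERK signalling, had 376 and 230 in WT against 349 and 392 in Zbtb16lu/lu. WT B stood below the other 3 libraries, and the log2 difference was 0.33 ± 0.25 (limma adjusted p = 0.660). Zfp36, the mRNA decay factor also called tristetraprolin, counted 1162 and 1809 in WT against 1764 and 1296 in Zbtb16lu/lu. The genotypes overlapped almost completely, with a log2 difference of 0.06 ± 0.22 (limma adjusted p = 0.943).

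Among the phosphatases, Dusp6, which acts on ERK in the cytoplasm, had 1238 and 1375 in WT against 1720 and 1783 in Zbtb16lu/lu. Both mutant libraries were above both WT libraries, with means of 1307 ± 97.1 and 1752 ± 44.8 (SD, n = 2 each). The log2 difference was 0.42 ± 0.13, with an adjusted p of 0.422 in limma, 0.428 in edgeR and 0.196 in DESeq2. Dusp1, a nuclear phosphatase with preference for p38 and JNK, counted 1087 and 2374 in WT against 1627 and 1200 in Zbtb16lu/lu. The mutant values lay inside the WT range, and the log2 difference was -0.20 ± 0.32 (limma adjusted p = 0.846). Dusp2, another nuclear phosphatase, had 975 and 1349 in WT against 1537 and 1245 in Zbtb16lu/lu. The groups overlapped, with a log2 difference of 0.27 ± 0.19 (limma adjusted p = 0.628).

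**Figure D1:**
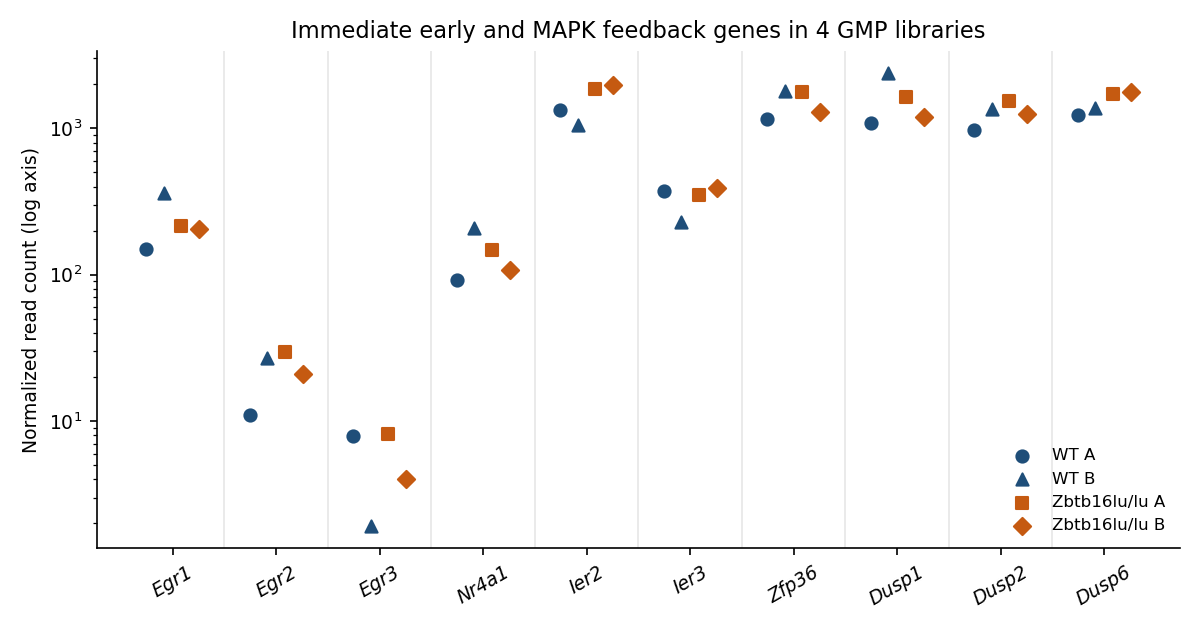
Normalized read count (log axis) of each of the 10 genes in the 4 GMP libraries, 1 point per library, with WT in blue and Zbtb16lu/lu in orange. Only for Ier2 and Dusp6 did both orange points lie above both blue points, and for Egr1, Nr4a1, Dusp1 and Zfp36 the triangle of WT B was the highest of the 4.

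Taking the genotype comparison over all members, 9 of the 10 passed the filter on low values and were tested, and 0 passed the adjusted p threshold in limma or in edgeR. The background was the same, since limma called 0 of 20531 genes (0%) and edgeR called 0, while 2028 genes (9.88%) had an unadjusted p under 0.05 in limma. Of the 9 members, 2 (22.2%), Ier2 and Dusp6, were under that unadjusted level. With DESeq2, 220 of 12968 genes (1.70%) passed, and of the 7 members that received an adjusted p only Ier2 was among them. Both Zbtb16lu/lu libraries were above both WT libraries for 2 of 9 members, or 22.2%, next to 21.7% of all tested genes, and none was below both. The median log2 difference of the members was 0.27, beside -0.01 for all tested genes, with 6 members positive and 3 negative. A two-sided exact permutation test of 2 against 2 libraries cannot give a p below 0.333. GEO lists 1 sample per genotype, and the study states 3 independent RNA extractions, so the p-values measure only the spread between the libraries held here. In bulk RNA a change in the share of cells that express a gene and a change in RNA per cell cannot be told apart.

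For most members the direction depended on which libraries were paired. Egr1, Dusp1, Zfp36 and Nr4a1, 4 of the 10, were above WT A and below WT B in both mutant libraries. Within the tag shared by both genotypes, Zbtb16lu/lu A was above WT A for 9 of 10 genes, with a median log2 difference of 0.58 over the 9 tested members. Between the libraries with the other tags, Zbtb16lu/lu B was below WT B for 6 of 10, with a median of -0.34. Over all tested genes the medians of these pairings were -0.00 and -0.01. In the crossed pairings Zbtb16lu/lu A was above WT B for 6 of 10 members, with a median of 0.14, and Zbtb16lu/lu B was above WT A for 9 of 10, with a median of 0.35. Dusp1, for example, was 0.58 higher within the shared tag (95% interval 0.47 to 0.69, counting error only) and 0.98 lower between the other libraries on the log2 scale (-1.08 to -0.88). Egr1 was 0.52 higher (0.22 to 0.84) and 0.83 lower (-1.09 to -0.59) in the same pairings. In all 4 pairings of a mutant with a WT library, the sign was the same for 2 genes only, Ier2 (log2 differences of 0.48, 0.57, 0.81 and 0.90) and Dusp6 (0.47, 0.53, 0.32 and 0.37), and it varied for the other 8. The genotype difference could not be fitted with the tag as a term, because no residual degrees of freedom remain.

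**Figure D2:**
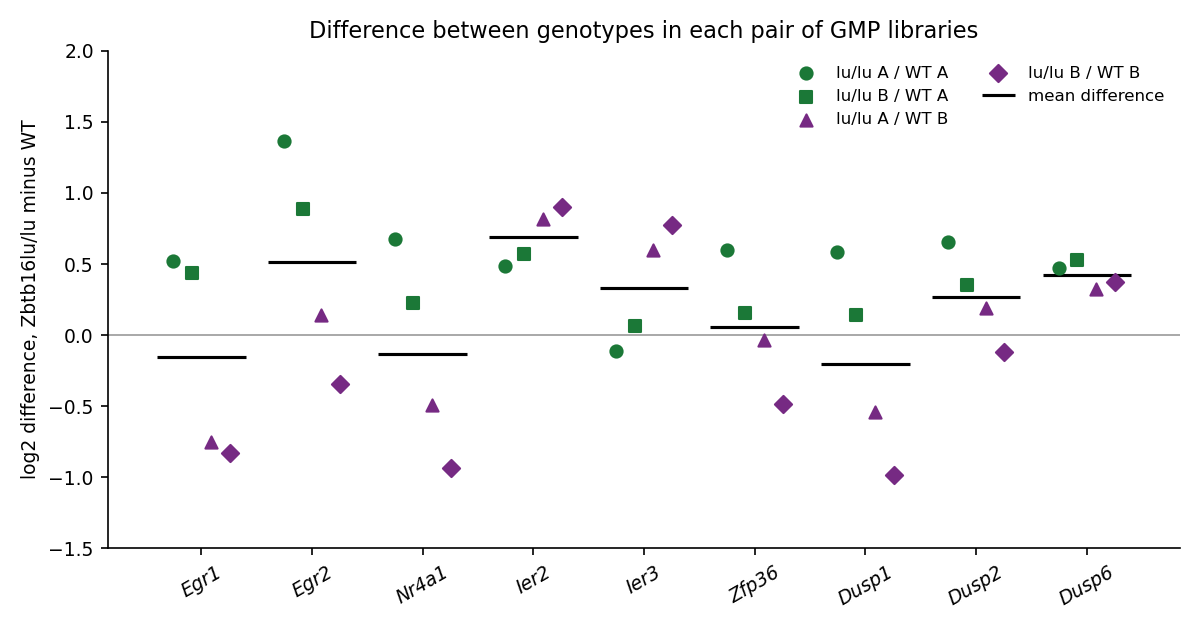
Log2 difference in normalized count between Zbtb16lu/lu and WT for each of the 9 tested members, 1 point per pairing of libraries (green against WT A, purple against WT B) and a black line at the mean difference. Ier2 and Dusp6 had all 4 points above 0, and Egr1, Nr4a1, Zfp36 and Dusp1 had green points above 0 and purple points below it.

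Leaving out 1 library changed the limma log2 differences accordingly. Without WT A, Egr1 (-0.79), Dusp1 (-0.76), Nr4a1 (-0.71), Zfp36 (-0.26) and Egr2 (-0.10) were lower in Zbtb16lu/lu. In that fit Ier2 (0.86), Ier3 (0.69), Dusp6 (0.35) and Dusp2 (0.04) were higher. Without WT B, Egr2 (1.13), Ier2 (0.53), Dusp2 (0.50), Dusp6 (0.50), Egr1 (0.48), Nr4a1 (0.45), Zfp36 (0.38) and Dusp1 (0.36) were higher, and Ier3 had -0.02. Dusp1 thus had opposite signs in these fits. In them the lone WT library is assumed to vary like the Zbtb16lu/lu pair, so no calls are given. Without Zbtb16lu/lu B the difference of Dusp1 was 0.02, and without Zbtb16lu/lu A it was -0.42.

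The spread between libraries of the same genotype was itself uneven. WT B was at least 2-fold above WT A for 4 of 9 tested members (44.4%), beside 6.97% of all tested genes. These were Egr1 (2.41-fold, log2 ratio 1.27, 95% interval 1.00 to 1.56), Egr2 (2.35-fold, 1.23, 0.25 to 2.46), Nr4a1 (2.24-fold, 1.16, 0.81 to 1.54) and Dusp1 (2.18-fold, 1.13, 1.02 to 1.23). The intervals are exact binomial ones from the recovered reads and cover counting error only. Zfp36 (log2 ratio 0.64), Dusp2 (0.47) and Dusp6 (0.15) were higher in WT B by less, while Ier2 (-0.33) and Ier3 (-0.71) were lower, and the intervals of all 5 excluded 0. None of the 9 was at least 2-fold below, against 4.98% of all tested genes. Egr3, with 8 and 2 reads, had an interval of -5.32 to 0.28, so no difference was detectable at this depth. Between the Zbtb16lu/lu libraries 0 of 9 members were 2-fold apart (4.14% of all tested genes were), and the largest log2 ratio was 0.48, for Egr2. The median absolute log2 ratio of the members was 0.71 between WT libraries and 0.30 between Zbtb16lu/lu libraries, and that of all tested genes was 0.28 and 0.15. The grouping of members by this difference was made after their values were seen. The members themselves were chosen with earlier results of these data known, so their share beside that of all genes is not a test.

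**Figure D3:**
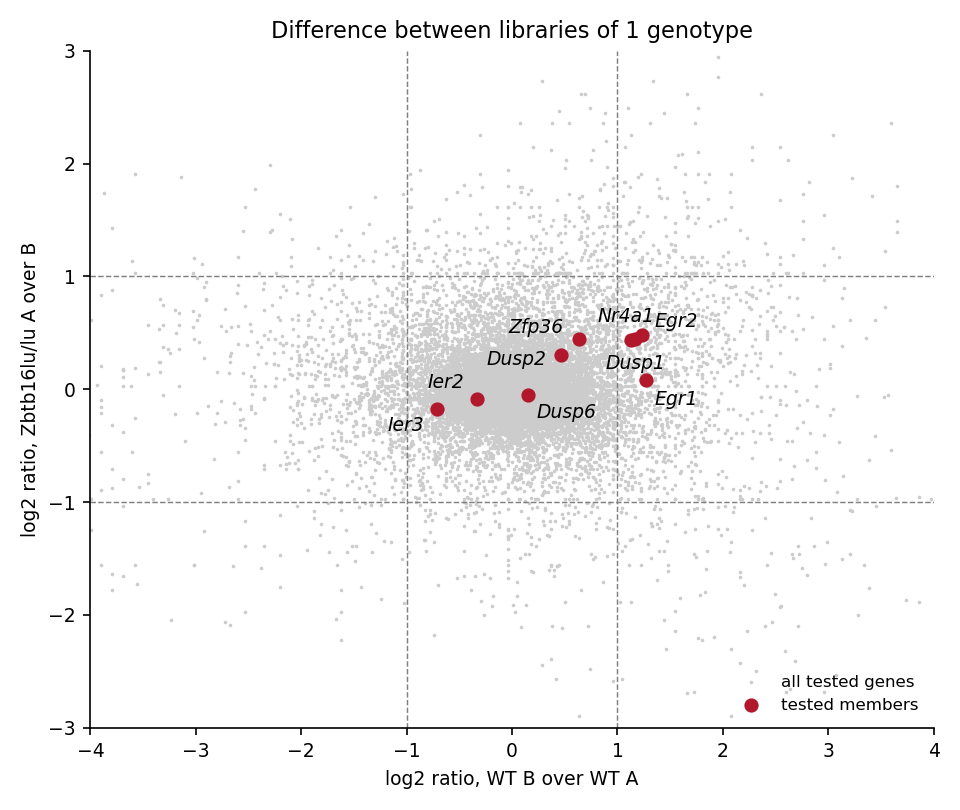
Log2 ratio between the WT libraries (horizontal) and between the Zbtb16lu/lu libraries (vertical) for all tested genes in grey and the 9 tested members in red, with dashed lines at 2-fold and 43 genes outside the drawn area. Egr1, Egr2, Nr4a1 and Dusp1 lay to the right of the 2-fold line, and no member crossed it vertically.

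Other features also differed between the WT libraries. The 8 erythroid markers had a median log2 ratio of WT B to WT A of 2.50, and their summed normalized count was 1329 and 3448 in WT A and WT B then 1303 and 2598 in Zbtb16lu/lu A and B. The 5 megakaryocyte markers had a median of 1.32 and sums of 1991, 4474, 1550 and 2741 in that order. No marker of either list was at 0. The 11 tested mature neutrophil markers had a median of -1.58 and sums of 14174, 6478, 10520 and 21044. Of them, 7 were at least 2-fold lower in WT B (4.98% of all tested genes were). Cxcr2 (log2 ratio 0.57), Ly6g (0.55) and Mmp8 (0.09) were higher there. Mmp9, named for this value, was at 0 in at least 1 library. Between the Zbtb16lu/lu libraries the sums of all 3 lists were higher in B. Between the genotypes the neutrophil list had a median log2 difference of 2.14, with all 11 positive and 0 past the adjusted threshold in limma. DESeq2 called 1 of the 7 neutrophil markers that received an adjusted p, Ltf, which was named for this call after its value was seen (log2 difference 4.08, adjusted p = 0.0432). All 11 monocyte and macrophage markers were positive as well, with a median of 0.39, sums of 79041 and 94931 in WT against 107205 and 113985 in Zbtb16lu/lu, and 0 past the threshold in limma or DESeq2. The part of these cell types in the values of Egr1, Dusp1, Nr4a1 or Ier2 was not tested.

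Related genes were examined in lists. Of 35 other immediate early genes, 33 were tested, 0 passed in limma, 5 had an unadjusted p under 0.05 (9.88% of all tested genes did), 4 of them positive and 1 negative, and the median log2 difference was 0.10. The widest differences were those of Nr4a3, an orphan receptor related to Nr4a1 (1.62, adjusted p = 0.583), Socs3, a cytokine signalling inhibitor (-1.26, adjusted p = 0.481), and Ier5l (1.15, adjusted p = 0.534). Nr4a3 had mean normalized counts of only 3.96 in WT and 11.2 in Zbtb16lu/lu, and Ier5l of 10.3 and 23.9. The differences of Nr4a3 and Ier5l therefore rest on few reads. Of the 25 that received an adjusted p in DESeq2, 3 passed (1.70% of all genes did). Both mutant libraries were above both WT libraries for 8 of the 33 genes of the list, beside 21.7% of all tested genes. The 3 genes that DESeq2 called were named after their values were seen. They were the AP-1 subunits Jund (DESeq2 log2 difference 1.06, adjusted p = 7.07e-06) and Junb (0.79, 0.0431) and the pseudokinase Trib1 (0.77, 0.0209). Between the WT libraries 7 of the 33 were at least 2-fold higher in WT B (6.97% of all tested genes were) and 2 at least 2-fold lower (4.98%). Fos and Fosb, further AP-1 subunits also named after their values were seen, had log2 ratios of 1.43 and 1.26 there, while Junb had -0.78.

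The 20 ERK pathway feedback genes beyond the members include the sprouty and Spred proteins, which restrain signalling from Ras to ERK. Of 16 tested, 0 were 2-fold higher in WT B (6.97% of all tested genes were) and 3 were 2-fold lower (4.98%), with a median log2 ratio of -0.46 where the members had 0.64, and the difference between the lists was not tested. Between genotypes 0 passed in limma and 0 of 6 in DESeq2, the median was 0.01, and Phlda1 (0.87, adjusted p = 0.774), Spred3 (0.73, adjusted p = 0.568) and Dusp16 (-0.73, adjusted p = 0.527) had the widest differences. Phlda1 was low, with mean normalized counts of 12.4 in WT and 14.8 in Zbtb16lu/lu. Its log2 ratio of WT B to WT A was -3.03. The 26 ERK cascade components were all tested, with 0 called in limma and 1 in DESeq2, a median of -0.06 and no gene 2-fold apart between WT libraries. The called gene, Rps6ka3, is an ERK-activated kinase and had normalized counts of 5396 and 4349 in WT against 2983 and 3520 in Zbtb16lu/lu. Both mutant libraries were below both WT libraries, with a log2 difference of -0.58 (adjusted p = 0.370 in limma and 0.0277 in DESeq2). Of the others farthest from 0, Mkl1, a serum response factor cofactor, had 0.40 (limma adjusted p = 0.433), and Sos1, a Ras exchange factor, had -0.37 (0.499). Of the p38 and JNK cascade components 13 of 16 were tested, 0 were called in limma or DESeq2, and the median was -0.09, with Map2k6 (-0.26, limma adjusted p = 0.614), Map3k1 (0.23, 0.548) and Map2k4 (-0.22, 0.576) farthest from 0. Among paralogs and cofactors of the members, 7 of 8 were tested and 0 were called in limma or DESeq2. The median was 0.08, and Nr4a2 (-0.41, limma adjusted p = 0.651) and the mRNA decay factor Zfp36l1 (-0.33, 0.798) followed Nr4a3, whose counts were low, in size.

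Among NF-kB feedback and cytokine genes 13 of 14 were tested and 0 were called in limma or DESeq2, with a median log2 difference of 0.25. Nfkbia, the inhibitor of NF-kB, had normalized counts of 1726 and 870 in WT against 2204 and 1959 in Zbtb16lu/lu (log2 difference 0.76, limma adjusted p = 0.461). Cxcl2 (0.72, adjusted p = 0.570) and Il1b (-0.60, adjusted p = 0.811) came next. Il1b was low, with mean normalized counts of 20.8 in WT and 10.1 in Zbtb16lu/lu. Its log2 ratio of WT B to WT A was 2.17.

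All 10 heat shock genes, which encode chaperones, had lower values in each mutant library than in either WT library, as 22.1% of all tested genes did. Of these, 0 passed the adjusted threshold in limma, 8 had an unadjusted p under 0.05 (9.88% of all tested genes did), and the median log2 difference was -0.68. DESeq2 called 6 of the 10, all lower in Zbtb16lu/lu, against its background of 1.70%. Named after their values were seen, they were Hsp90aa1 (adjusted p = 0.00187), Hspa8 (0.00419), Dnaja1 (0.00694), Hspe1 (0.0320), Hspa1b (0.0397) and Hspd1 (0.0778). The widest limma differences were those of Hspa1b (-3.36, adjusted p = 0.299), Hspa1a (-2.73, adjusted p = 0.465) and Hsph1 (-1.29, adjusted p = 0.387). Hspa1a had normalized counts of 158 and 2305 in WT A and WT B, a 14.5-fold gap, against 64.8 and 126 in Zbtb16lu/lu. Hspa1b had 471 and 2170, a 4.60-fold gap, against 72.0 and 131. The WT library in which both were higher was the one with the higher Egr1, Dusp1 and Nr4a1, although the list's median log2 ratio of WT B to WT A was -0.34 and that of Hsph1 was -1.34. Whether the heat shock values bear on those of the members was not tested. Hspa1a and Hspa1b are near-identical copies, so the split of reads between them is uncertain.

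To find genes near the members' mean pattern, log2 values were centred on each gene's mean over the 4 libraries. The mean centred value of the 9 tested members was -0.38 in WT A, 0.18 in WT B, 0.21 in Zbtb16lu/lu A and -0.01 in Zbtb16lu/lu B. The 10 nearest of the other tested genes by root mean square distance were Mkl2 (0.00553), Dock1 (0.00741), Pilrb1 (0.0207), Cryl1 (0.0273), Gm32633 (0.0294), Inafm1 (0.0296), Sag (0.0307), Gm47292 (0.0308), Gm21958 (0.0314) and Lilrb4a (0.0317), all in log2 units. With 4 libraries and 20531 genes such small distances describe the libraries and are not a test. Single members departed from the mean profile. In WT B the centred values were 0.71 for Egr1, 0.66 for Dusp1, 0.65 for Nr4a1, 0.36 for Egr2 and 0.29 for Zfp36. There Dusp2 had 0.10, Dusp6 -0.14, Ier2 -0.51 and Ier3 -0.52. Closeness to the mean is therefore not closeness to each member.

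The 416b experiment addressed the same genes after PLZF was added. With 1 library per condition no test was possible, and the intervals given are 95% exact binomial ones that cover counting error only. None of the 10 genes was 2-fold apart, beside 1.41% of the 11836 genes with a mean normalized count of at least 10. The median log2 ratio was -0.04 for the members and -0.00 for those genes. Of the 10, 4 were higher and 6 lower.

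Dusp6, abundant in this line, had normalized counts of 6774 with Empty vector and 5992 with PLZF-Flag. This ratio was 0.885-fold (log2 -0.18, interval -0.23 to -0.12). Zfp36 had 1077 and 970, a log2 ratio of -0.15 (-0.29 to -0.02). These were the 2 members of 10 whose interval excluded 0, both on the lower side, while the same held in either direction for 32.0% of the 11836 genes, so the count does not set the members apart. For Dusp6 the direction in 416b cells with added PLZF was opposite to that in Zbtb16lu/lu GMPs, where it was 0.42 higher without passing the test, and the comparison of the experiments was not tested. Ier2, the other gene above WT in both mutant GMP libraries, had 3675 and 3827 (log2 ratio 0.06, -0.01 to 0.13).

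The remaining intervals included 0. Egr1 counted 186 with Empty vector and 218 with PLZF-Flag (log2 ratio 0.23, -0.07 to 0.53), Nr4a1 418 and 448 (0.10, -0.11 to 0.31) and Dusp2 896 and 967 (0.11, -0.03 to 0.25). Dusp1 had 346 and 327 (-0.08, -0.32 to 0.15), Ier3 742 in both libraries (-0.00, -0.16 to 0.16) and Egr3 129 and 117 (-0.14, -0.54 to 0.26). Egr2 rested on 48 and 14 reads (-0.32, -1.30 to 0.55). A 2-fold change lay outside the intervals of 9 genes and inside that of Egr2.

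**Figure D4:**
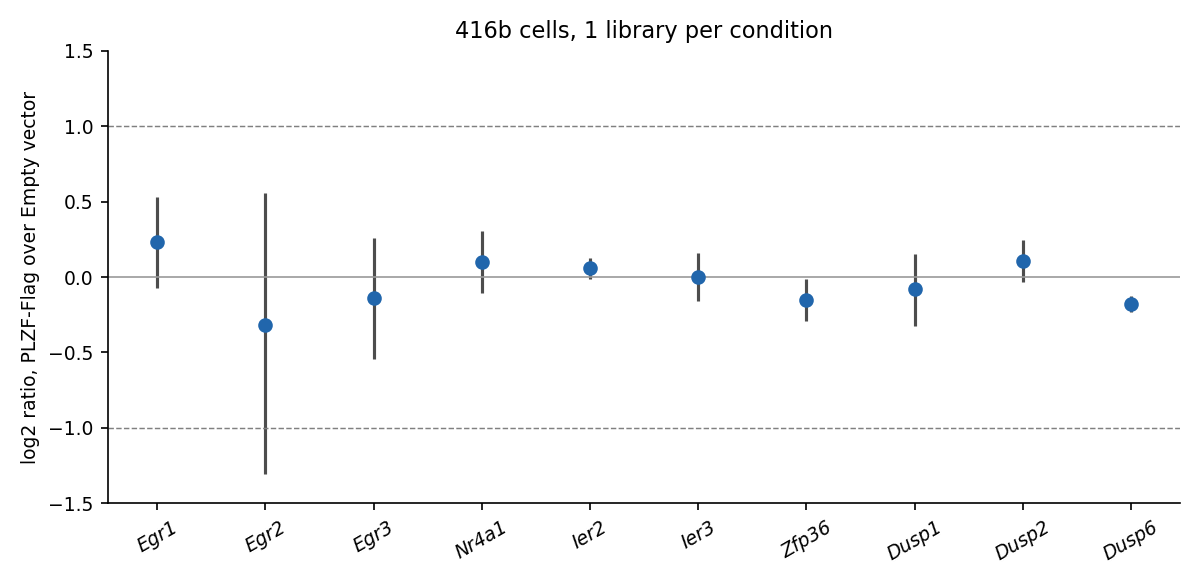
Log2 ratio (PLZF-Flag over Empty vector) in 416b cells for the 10 genes, with vertical lines for the 95% exact binomial interval (counting error only) and dashed lines at 2-fold. The intervals of Zfp36 and Dusp6 lay below 0, and the widest, that of Egr2, ran from -1.30 to 0.55.

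In 416b cells the related lists were described over their genes with a mean normalized count of at least 10, and the counts and order below hold for those genes only. The median log2 ratio was 0.02 over 28 other immediate early genes, 0.07 over 15 ERK pathway feedback genes, -0.01 over 26 ERK cascade components, -0.03 over 13 p38 and JNK components, -0.02 over 6 paralogs and cofactors and 0.07 over 8 heat shock genes, and 0 of these genes were 2-fold apart. Fos, at 69.0 and 41.3 normalized counts, had the widest ratio of the immediate early genes at that level (-0.73, -1.43 to -0.11), and Maff (0.47) and Klf6 (-0.34) followed. Dusp4, a phosphatase related to Dusp2, had 4512 and 5445 (0.27, 0.21 to 0.33), in the direction opposite to Dusp6, and Spred3 (0.34) and Dusp10 (0.28) were the other wide ones of the feedback list. Ksr1 (0.32), Elk1 (-0.33) and Nf1 (-0.20) led the ERK components, Map3k1 (-0.37), Map3k7 (-0.18) and Map2k6 (0.15) the p38 and JNK components, and Ier5 (0.26), Nr4a2 (-0.19) and Nab2 (0.11) the paralogs and cofactors. The heat shock genes with the widest ratios were Dnajb1 (0.17), Hspa8 (0.09) and Hsp90ab1 (0.09). Over 10 NF-kB feedback and cytokine genes the median was -0.17, and Ccl3, from 24.2 to 3.30 normalized counts, was the 1 gene of those 10 at least 2-fold lower (-2.55, -5.97 to -0.93), ahead of Nfkbiz (-0.58) and Ptgs2 (-0.51).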

How the data were processed

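Only the RNA-seq tables were used here. The authors removed low-quality reads, mapped the rest to mm10 with Subread, counted them per gene with featureCounts (1.5.0 in the submitters' processing notes) and scaled each library by its DESeq2 size factor. The deposited signal values are these normalized counts. GMP libraries were stranded total RNA, 416b libraries SMART-Seq. The tables also hold the authors' means, fold changes and p-values, which were not used.

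In GMPs, log2(value + 1) was tested with limma-trend (3.58.1, R 4.3.3) for genes with at least 10 in at least 2 libraries, adjusted by Benjamini-Hochberg, and called at 0.08. Fold changes are on this scale, which understates changes of low genes. In each of the 4 columns 100% of values were whole multiples (within 0.01) of the value of 1 read, so edgeR (4.0.16) and DESeq2 (1.42.0) were run on these reads as alternatives; for the WT A and Zbtb16lu/lu B columns that value is so near 1 that the multiples alone do not prove it. In 416b cells 84.8% and 85.5% of values were whole reads, and fractions were rounded for the intervals. Scripts were tested on simulated data. Exon lengths came from GENCODE M21. Python 3.11.15 and scipy 1.17.1 were used.

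The members and lists were chosen with earlier results of these data known. Named are all members, the 3 genes of each related list with the widest difference in either table, and the 10 nearest profiles, with Zbtb16 and cell type markers named as checks of the libraries. Other related genes are marked as named after their values were seen. Alternatives were other filters, pseudocounts, scalings, priors, thresholds and leaving out each library.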

Additional observations from a re-analysis of the deposited data

How the results depend on the processing

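The count of called genes and of called members stayed at 0 in limma under 9 alternatives of filter, pseudocount, scaling, trend, prior and threshold, and in edgeR. DESeq2 called 220 genes and 1 member. Leaving out each library gave between 1 and 4662 called genes and between 0 and 6 called members. In these fits the log2 difference of Egr1 ran from -0.79 to 0.48, of Egr2 from -0.10 to 1.13, of Ier3 from -0.023 to 0.69, of Dusp1 from -0.76 to 0.36, of Zfp36 from -0.26 to 0.38 and of Nr4a1 from -0.71 to 0.45, and 6 members reversed in at least 1 of them. No member reversed in another setting. Ier2 ran from 0.53 to 0.86, Dusp6 from 0.35 to 0.50 and Dusp2 from 0.04 to 0.50. The number of members at least 2-fold apart between WT libraries was 4, and 3 with a pseudocount of 10. In 416b cells 550 genes were past 2-fold without a filter and 15 with a mean of at least 100, instead of 167, because fewer or more low genes were counted, and 0 members were in any scaling. In GMPs depth limited Egr3 (2 to 8 reads) and Egr2 (11 to 29 reads) most. No paired analysis was possible because the labels number no GMP replicates and a fit with the library tag as a term leaves no residual degrees of freedom, so the difference within the shared tag stands in the report as a value with no test.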
